A study of Arabidopsis thaliana with 9 samples.

Results

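The pollen polygalacturonases described here are 5 genes of Arabidopsis thaliana, AT3G07820, AT5G48140, AT3G07830, AT3G07840 and AT1G02790, listed by gene name. They were chosen with earlier results of these data known, so the ranks and sizes given below describe them and do not test the choice. A probe set that lists the gene alone was available for 3 of the 5, among 22746 probe sets tested in all. AT3G07830, known as PGA3 (polygalacturonase 3), and AT1G02790, known as PGA4 (polygalacturonase 4), have no probe set listed to them and were not analysed here. Names follow the reference table of the TAIR10.1 assembly, and no positions are given, since no genome build is stated for the arrays.

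Expression arrays were run on whole pistils of ms1 (Male Sterile 1) plants in the Ler-0 ecotype at stage 14, with 100 pistils per collection and 3 biological replicates in each of 3 groups. One group received Col-0 pollen carrying myb97-1, myb101-4 and myb120-3 (the myb triple mutant), another received Col-0 pollen of the wild type, and the last stayed unpollinated. Tubes grew for 8 hours in both pollinated groups, and every group, unpollinated included, carries the ms1 mutation. Pollen and pistil differ in ecotype, so pollination and the presence of Col-0 transcripts cannot be told apart, nor can RNA from tubes and RNA from the pistil around them. MYB97, MYB101 and MYB120 have 0 listed probe sets, so the mutant label was not checked against its own genes.

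Polygalacturonases belong to glycoside hydrolase family 28 and cut the bond between galacturonic acid units in homogalacturonan, the main backbone of pectin. They act on pectin from which pectin methylesterases have removed methyl groups. Pectin forms much of the wall at the growing tip of a pollen tube and much of the matrix of the female tract through which the tube passes, and pollen of many plants is rich in exopolygalacturonases, which take galacturonic acid from the chain end.

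Of the 3 measured genes, AT3G07820 and AT5G48140 were higher by more than 100-fold in pollinated pistils, by nearly the same amount with either kind of pollen, and AT3G07840 passed no test. AT3G07820 had intensities (linear array units, RMA-processed by the authors) of 6080.6, 7231.1 and 6746.9 with mutant pollen, 5832.9, 6208.4 and 7750.1 with wild-type pollen, and 20.1, 11.8 and 19.2 in unpollinated pistils. All 6 pollinated arrays lay far above all 3 unpollinated ones, and the 2 pollinated groups overlapped. Mean log2 levels were 12.7 ± 0.13 with mutant pollen, 12.68 ± 0.22 with wild-type pollen and 4.05 ± 0.43 in unpollinated pistils (SD, n = 3 each).

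The log2 difference of AT3G07820 from unpollinated pistils was 8.65 ± 0.19 with mutant pollen (SE, limma adjusted p = 1.73e-10), which is 402-fold with a 95% interval from 301 to 538. With wild-type pollen it was 8.63 ± 0.19 (limma adjusted p = 1.61e-10), or 395-fold with an interval from 296 to 528. In both comparisons AT3G07820 ranked 1 of 22746 probe sets by log2 difference, listed and unlisted ones together. Its pollinated levels were above at least 99.3% of probe sets on their own arrays. In unpollinated pistils only 9.25% to 27.2% of probe sets were dimmer, and without detection calls such a level cannot be called absent.

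AT5G48140 had intensities of 1226.2, 1488.9 and 1341.8 with mutant pollen, 1332.6, 1234.7 and 1584.7 with wild-type pollen, and 11.2, 9.5 and 11.2 in unpollinated pistils. Here too the pollinated groups overlapped each other and lay wholly above the unpollinated group. The log2 difference from unpollinated pistils was 6.99 ± 0.11 with mutant pollen (SE, limma adjusted p = 3.12e-11), or 127-fold with a 95% interval from 107 to 152. With wild-type pollen it was 7.02 ± 0.11 (limma adjusted p = 2.79e-11), or 130-fold with an interval from 109 to 155. These differences ranked 18 and 19 of 22746 probe sets. The unpollinated levels were among the dimmest values of their arrays, with 2.25% to 6.65% of probe sets below them.

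AT3G07840 stayed dim in all 9 arrays. Its intensities were 31.1, 28.8 and 30.5 with mutant pollen, 25.5, 25.5 and 34.3 with wild-type pollen, and 26.7, 20.7 and 26.5 in unpollinated pistils. The mutant arrays lay just above the unpollinated ones, whereas the wild-type arrays overlapped both other groups. Its log2 difference from unpollinated pistils was 0.30 ± 0.13 with mutant pollen (SE, limma adjusted p = 0.0982) and 0.20 ± 0.13 with wild-type pollen (limma adjusted p = 0.251). The 95% interval of the first difference reached a log2 of 0.6 and that of the second 0.5, so a change of the size seen in AT3G07820 lies outside both. The first passed when wild-type array 3 was left out (limma adjusted p = 0.0472).

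**Figure D1:**
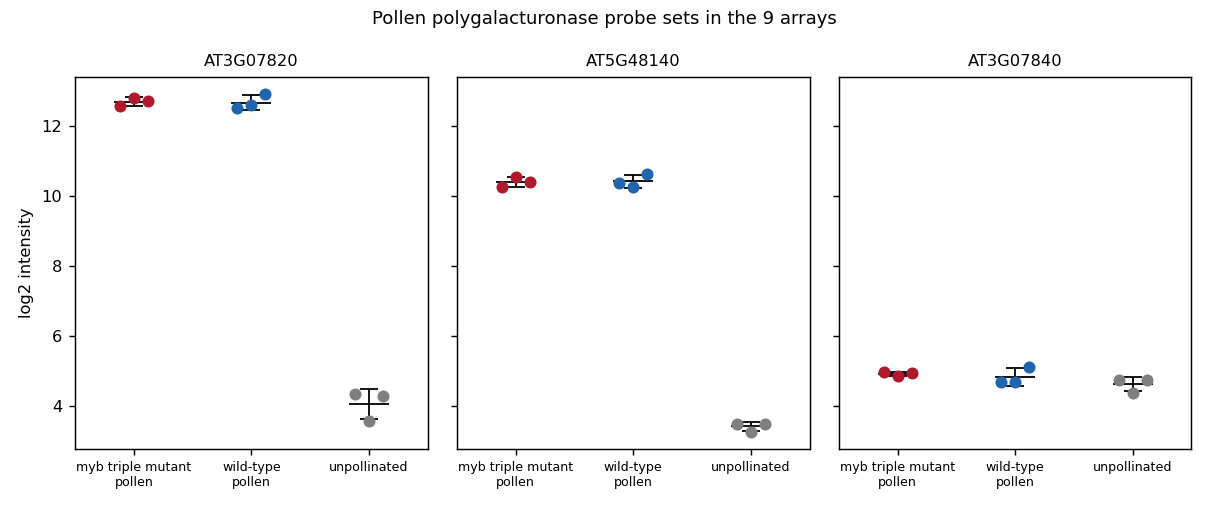
Log2 intensity (vertical axis) of the 3 measured polygalacturonases in each array, with mutant pollen, wild-type pollen and no pollination from left to right; points are arrays, bars are the mean ± SD (n = 3). AT3G07820 and AT5G48140 sit near log2 levels of 12.7 and 10.4 in both pollinated groups and near 4.05 and 3.41 in unpollinated pistils, while AT3G07840 stays between 4.37 and 5.1.

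Across the array, 41.5% of probe sets passed the test (adjusted p under 0.05) with mutant pollen against none and 43.6% with wild-type pollen against none. Called higher were 22.3% with mutant and 23.4% with wild-type pollen. Called lower were 19.2% with mutant and 20.2% with wild-type pollen, and the groups did not overlap in 50.5% with mutant and 52.8% with wild-type pollen. Beside such shares, a count of 2 members called higher out of 3 says little by itself, and the description rests on the sizes. A log2 difference of at least 2 with a call was seen in 1.78% and 1.91% of probe sets, with mutant and wild-type pollen. Both comparisons share the 3 unpollinated arrays.

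Mutant pollen was set against the wild type to ask what in pollinated pistils, tubes included, differs with the mutant pollen. None of the 3 polygalacturonases passed. The log2 difference was 0.03 ± 0.19 for AT3G07820, -0.03 ± 0.11 for AT5G48140 and 0.10 ± 0.13 for AT3G07840 (SE, n = 3 per group, limma adjusted p = 0.998 for each). In folds, the 95% intervals ran from 0.762 to 1.36 for AT3G07820, from 0.821 to 1.17 for AT5G48140 and from 0.871 to 1.31 for AT3G07840. These intervals give the precision of each estimate and are not limits of detection. The size of difference that would pass with 3 arrays per group was not tested. In this comparison 0.312% of all probe sets passed, 0.0264% higher and 0.286% lower with mutant pollen, and the groups did not overlap in 9.96%.

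Markers of the pollen tube, such as the receptor kinase genes ANX1 and ANX2 and the actin gene ACT12, rose beside the polygalacturonases. All 12 of 12 measured markers were called higher with either pollen, beside 22.3% of all probe sets with mutant and 23.4% with wild-type pollen. Their median log2 differences were 3.95 with mutant and 4.07 with wild-type pollen. Their summed intensity was 7304 to 9084 with mutant pollen, 8347 to 9888 with wild-type pollen and 346.9 to 460.4 in unpollinated pistils, and none was at 0. AT5G45880 was the brightest part of the pollinated sums, at 4420.5 to 5404.7 with mutant and 4973.3 to 5914.3 with wild-type pollen. PLIM2b was the brightest part in unpollinated pistils, at 129.8 to 196.7. Between mutant and wild-type pollen 0 of 12 passed limma's test, beside 0.312% of all probe sets, with a median log2 difference of -0.12. A lower marker level with mutant pollen was thus not shown, and the number of tubes and the RNA per tube cannot be told apart in these pistils.

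Within each pollinated group, the arrays in which the markers were high were mostly those in which AT3G07820 and AT5G48140 were high. With mutant pollen, the marker mean deviated from its group mean by a log2 of -0.19, 0.17 and 0.02 in arrays 1, 2 and 3, AT3G07820 by -0.13, 0.12 and 0.02, and AT5G48140 by -0.14, 0.14 and -0.01. With wild-type pollen, array 3 was highest in all of them, at 0.14 for the marker mean, 0.24 for AT3G07820 and 0.20 for AT5G48140. AT3G07840 did not follow this order in the mutant arrays, where array 2 was its lowest, but wild-type array 3 was its highest too, at 0.29. After the marker mean was subtracted from each pollinated array, a setting chosen after seeing the data, the log2 difference between mutant and wild-type pollen was 0.15 ± 0.17 for AT3G07820, 0.09 ± 0.17 for AT5G48140 and 0.22 ± 0.17 for AT3G07840 (SE), and none passed.

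**Figure D2:**
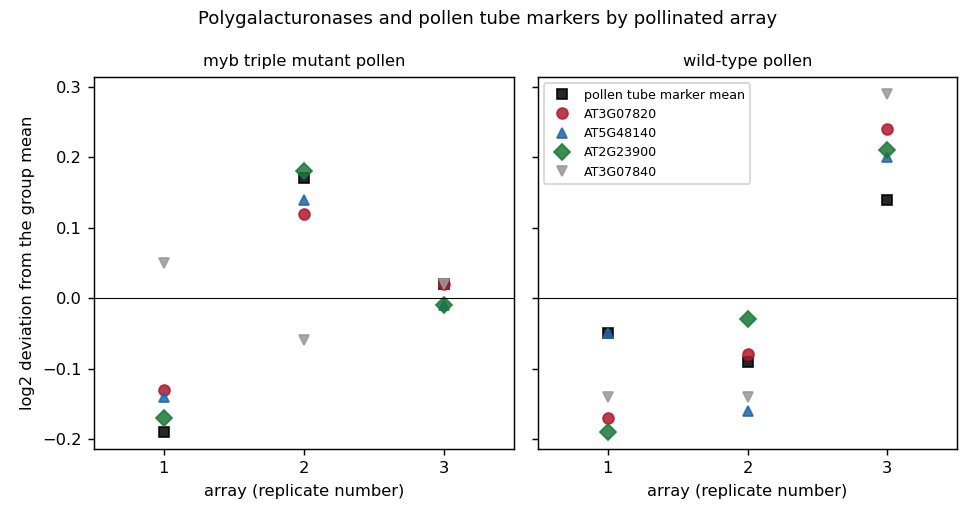
Deviation of each pollinated array from the mean of its own group (log2, vertical axis) for the mean of 12 pollen tube markers and for 4 polygalacturonases, by array, with mutant pollen on the left and wild-type pollen on the right. Mutant array 2 and wild-type array 3 are highest for the marker mean, AT3G07820, AT5G48140 and AT2G23900. For AT3G07840 mutant array 2 is lowest, and wild-type array 3 is highest.

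Markers of other flower cells moved less. The summed intensity of 6 tapetum and pollen coat markers was 1724 to 1875 with mutant pollen, 1989 to 2196 with wild-type pollen and 942.4 to 1580 in unpollinated pistils. AT1G75900 was the brightest part of that sum, at 1573.8 to 1734.1, 1845.8 to 2033.9 and 855.1 to 1488.9. Called higher were 2 of 6 with mutant and 3 of 6 with wild-type pollen, beside 22.3% and 23.4% of all probe sets. The 1 measured sperm marker, MGH3, was called higher with either pollen, at 1.14 ± 0.10 with mutant and 0.98 ± 0.10 with wild-type pollen (SE). The 6 pistil and ovule markers summed to 603.9 to 708.7 with mutant pollen, 696 to 730.9 with wild-type pollen and 1016 to 1149 when unpollinated. They did not move as a group. With mutant pollen 2 rose, 1 fell and 3 did not pass, at a median log2 difference of 0, and with wild-type pollen 2 rose, 2 fell and 2 did not pass, at a median of -0.04. ALC, a transcription factor gene of fruit separation and the brightest part of the sum, fell, at -1.25 ± 0.10 with mutant and -1.11 ± 0.10 with wild-type pollen (SE). SPT, a transcription factor gene of carpel growth, rose, at 0.64 ± 0.09 with mutant and 0.71 ± 0.09 with wild-type pollen, as did AGL80, a gene of the central cell, at 0.27 ± 0.09 with mutant and 0.53 ± 0.09 with wild-type pollen. EC1.2, an egg cell gene, passed against unpollinated pistils with wild-type and not with mutant pollen, at -0.17 ± 0.17 with mutant and -0.78 ± 0.17 with wild-type pollen, and its difference between the 2 pollens did not pass (limma adjusted p = 0.506). Their part in the levels of the polygalacturonases was not tested.

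Within the wider polygalacturonase family, AT3G07820 and AT5G48140 were among a few probe sets that rose steeply, and AT3G07840 was not. Of 62 other family genes listed by name, 42 have a probe set of their own, 12 share 5 probe sets with other family genes and 8 are not listed, which gave 47 probe sets. Against unpollinated pistils, 11 were called higher and 9 lower with mutant pollen, and the counts with wild-type pollen were 15 higher and 6 lower. These shares, 42.6% and 44.7%, are close to the 41.5% and 43.6% of all probe sets, and the family medians of 0.02 and 0.11 are close to those of all probe sets (0.011 and 0.004). The split by direction rests on the scaling. With each array's median subtracted, where the all-array median shifted by -0.11 with mutant and -0.136 with wild-type pollen, it was 5 higher and 12 lower with mutant and 7 higher and 11 lower with wild-type pollen. After renewed quantile normalization it was 7 higher and 10 lower with mutant and 12 higher and 9 lower with wild-type pollen.

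AT2G23900 was the 1 gene with a probe set of its own, outside the 5, that rose by a log2 of more than 2. It had intensities of 968.8, 1234.7 and 1082.4 with mutant pollen, 1082.4, 1209.3 and 1428.2 with wild-type pollen, and 23.1, 23.9 and 31.3 in unpollinated pistils. Every pollinated array was over 1 order of magnitude brighter than every unpollinated one. Its log2 difference from unpollinated pistils was 5.40 ± 0.14 with mutant pollen (SE, limma adjusted p = 6.38e-10) and 5.57 ± 0.14 with wild-type pollen (limma adjusted p = 4.75e-10). Between mutant and wild-type pollen it was -0.18 ± 0.14 (limma adjusted p = 0.998).

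A probe set listed to both AT3G07850 and AT3G14040, whose signal cannot be assigned to either, showed the same steep rise. Its intensities were 2521.4, 2402 and 2556.6 with mutant pollen, 2019.8, 1663.5 and 2304.1 with wild-type pollen, and 24.6, 19.6 and 18.6 in unpollinated pistils. The 3 mutant arrays were each brighter than the 3 wild-type arrays, as were 4.73% of all probe sets. It did not follow the pollen tube markers in the mutant arrays, where array 2 was its lowest, with log2 deviations from the group mean of 0.02, -0.05 and 0.04 in arrays 1, 2 and 3. Among the wild-type arrays, array 3 was its highest, at 0.22. The log2 difference from unpollinated pistils was 6.91 ± 0.13 with mutant pollen (SE, limma adjusted p = 6.82e-11) and 6.57 ± 0.13 with wild-type pollen (limma adjusted p = 9e-11). The difference between mutant and wild-type pollen, 0.33 ± 0.13, did not pass (limma adjusted p = 0.975).

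**Figure D3:**
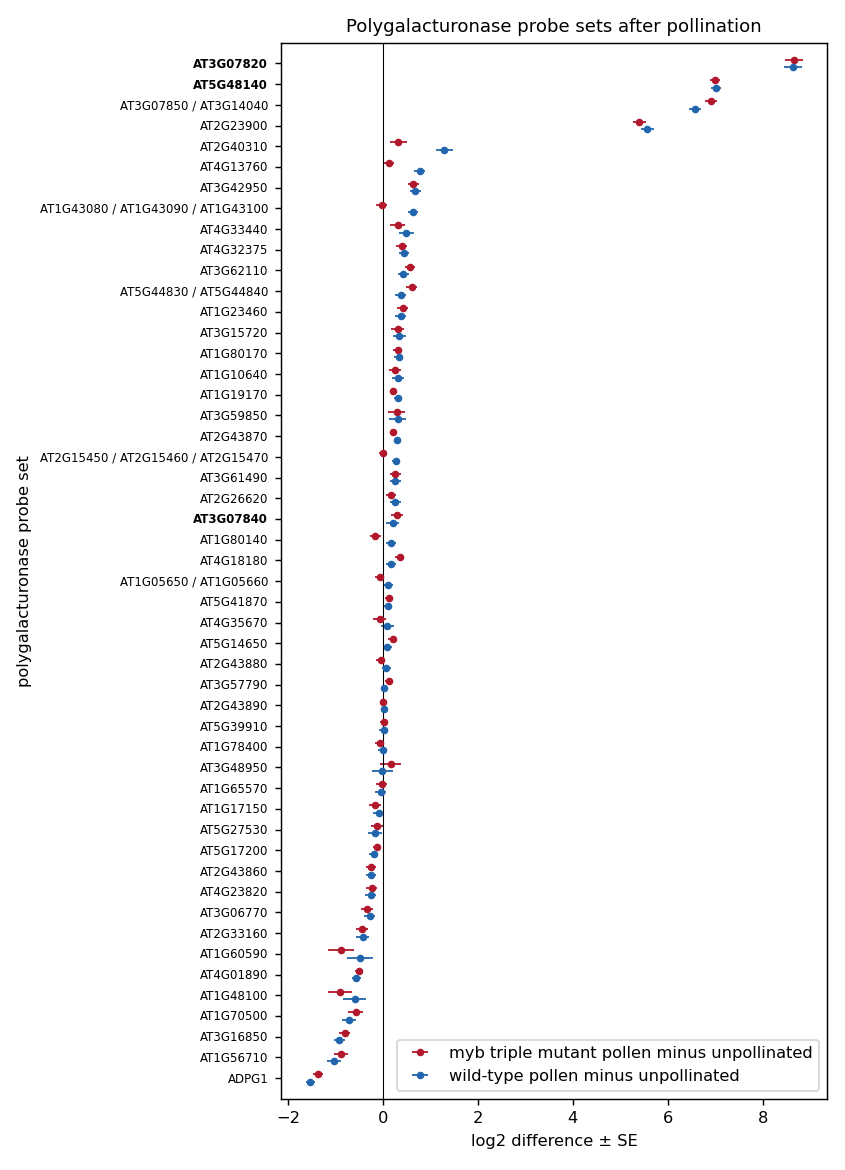
Log2 difference from unpollinated pistils (horizontal axis, ± SE) with mutant pollen and with wild-type pollen for the 3 measured polygalacturonases (bold) and 47 other probe sets of the family, ordered by the difference with wild-type pollen. Just 4 probe sets stand between 5.4 and 8.65 with either pollen, and the others lie between -1.53 and 1.29.

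Of the other family probe sets, 2 dim ones were called higher with wild-type pollen than without pollination and lower with mutant than with wild-type pollen. AT4G13760 had intensities of 11.6, 10.2 and 11.2 with mutant pollen, 15.5, 20.1 and 16.2 with wild-type pollen, and 10.3, 10.6 and 9.4 in unpollinated pistils. All 3 wild-type arrays were above all other arrays, and the mutant and unpollinated arrays overlapped. Its log2 difference was -0.64 ± 0.11 between mutant and wild-type pollen (SE, limma adjusted p = 0.0386), 0.12 ± 0.11 between mutant pollen and none (limma adjusted p = 0.387), and 0.77 ± 0.11 between wild-type pollen and none (limma adjusted p = 0.00024).

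A probe set shared by AT1G43080, AT1G43090 and AT1G43100 had intensities of 9.4, 11 and 9.3 with mutant pollen, 17.3, 15.2 and 14.6 with wild-type pollen, and 10.7, 10.9 and 8.8 in unpollinated pistils. Again the wild-type arrays stood above all others. Its log2 difference was -0.67 ± 0.11 between mutant and wild-type pollen (SE, limma adjusted p = 0.0386), -0.03 ± 0.11 between mutant pollen and none (limma adjusted p = 0.845) and 0.63 ± 0.11 between wild-type pollen and none (limma adjusted p = 0.00101).

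These 2 of 47 family probe sets, 4.26%, were the ones called between mutant and wild-type pollen, beside 0.312% of all probe sets, and both calls are fragile. The call of AT4G13760 was lost in 12 of its 15 alternatives, with limma adjusted p from 0.0167 to 0.179. That of the shared probe set was lost in 9 of 15, from 0.0155 to 0.222. In all of those alternatives both log2 differences stayed negative, from -0.72 to -0.52 and from -0.74 to -0.55. Leaving out any of 8 arrays for AT4G13760, and any of 7 for the shared probe set, ended the call.

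AT2G40310 showed the largest difference of the family between mutant and wild-type pollen but did not pass, and it was singled out after its values were seen. Its intensities were 10.8, 11 and 12.2 with mutant pollen, 26.9, 26.2 and 15.6 with wild-type pollen, and 9.9, 8 and 9.4 in unpollinated pistils. The groups did not overlap in any of the 3 pairs, and wild-type array 3 lay well below the other wild-type arrays. The log2 difference between mutant and wild-type pollen was -0.97 ± 0.18 (SE, limma adjusted p = 0.0827), and without wild-type array 3 it was -1.23 ± 0.11 (limma adjusted p = 0.00213). Leaving out any other array gave adjusted p from 0.111 to 0.449, with -0.84 without wild-type array 1 (adjusted p = 0.294) and -0.86 without wild-type array 2 (adjusted p = 0.449). With marker means subtracted, the setting chosen after seeing the data, it was -0.86 ± 0.17 (limma adjusted p = 9.3e-05). In that setting the SE was 0.17 for each probe set named, so this p does not reflect the spread of AT2G40310 itself. The SD of its log2 values was 0.44 in the wild-type arrays. Against unpollinated pistils the log2 difference of AT2G40310 was 0.32 ± 0.18 with mutant pollen (limma adjusted p = 0.191, and 0.0256 without wild-type array 3). With wild-type pollen it was 1.29 ± 0.18 (limma adjusted p = 0.000282).

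A probe set shared by AT2G15450, AT2G15460 and AT2G15470, also named after its values were seen, was brightest with wild-type pollen at still dimmer levels. It had 7.8, 8.4 and 7.8 with mutant pollen, 9.8, 9.2 and 10.1 with wild-type pollen, and 8.2, 8.6 and 7.4 in unpollinated pistils. The mutant and unpollinated arrays overlapped, and both lay below the wild-type arrays. The log2 difference between mutant and wild-type pollen was -0.28 ± 0.08 (SE, limma adjusted p = 0.542). Of the 47 family probe sets, 6 had all mutant arrays below all wild-type arrays and 2 had them above, beside 5.23% and 4.73% of all probe sets. On their own arrays the 4 dim probe sets were brighter than at most 30.8% of probe sets, and the probe set shared by AT2G15450, AT2G15460 and AT2G15470 than at most 3.27%.

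**Figure D4:**
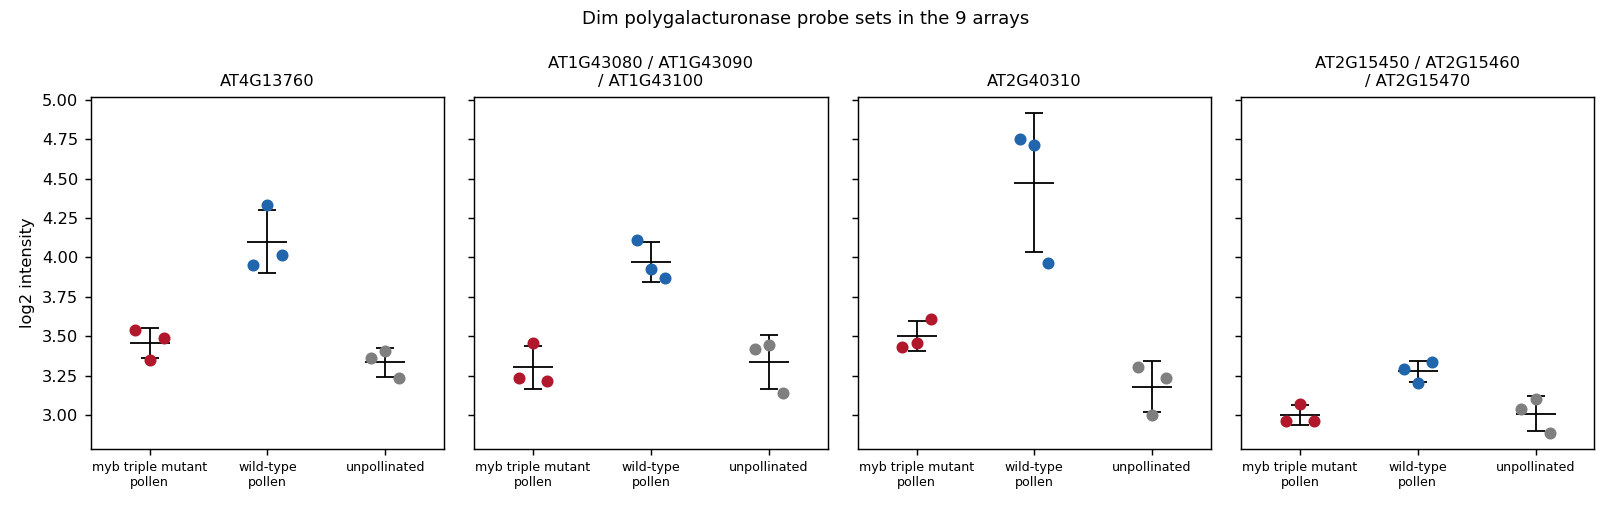
Log2 intensity (vertical axis) of 4 dim polygalacturonase probe sets in each array, with mutant pollen, wild-type pollen and no pollination from left to right; points are arrays, bars the mean ± SD (n = 3). In each panel the 3 wild-type arrays lie above the 3 mutant and the 3 unpollinated arrays. AT2G40310 and the probe set of AT2G15450, AT2G15460 and AT2G15470 were picked after their values were seen.

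**Figure D5:**
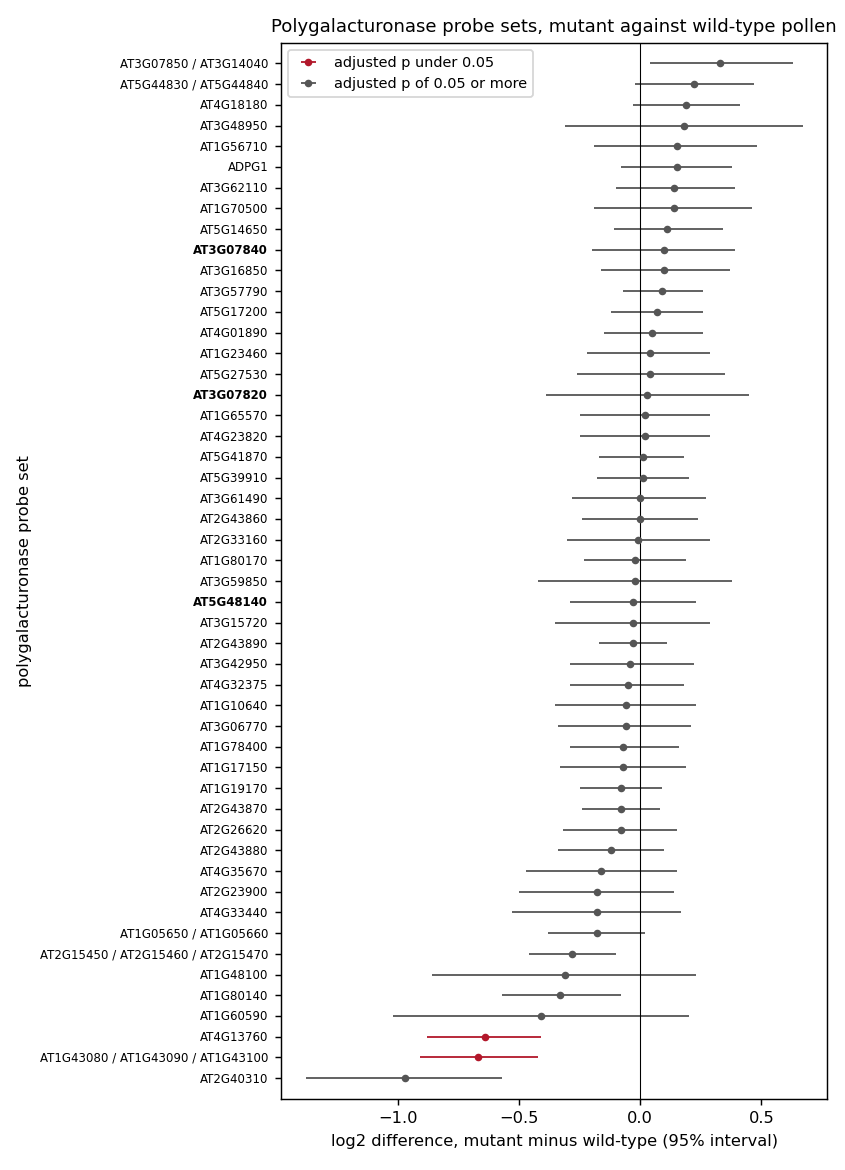
Log2 difference between mutant and wild-type pollen (horizontal axis, with 95% intervals of the limma fit) for the 3 measured polygalacturonases (bold) and 47 other probe sets of the family. The intervals of AT3G07820, AT5G48140 and AT3G07840 span 0, and AT4G13760 and the probe set of AT1G43080, AT1G43090 and AT1G43100, in red, passed the test.

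Other family genes were lower after pollination. ADPG1 encodes a polygalacturonase that acts in the separation layers of siliques and anthers. Its intensities were 25.1, 21.6 and 23.3 with mutant pollen, 23.1, 18.4 and 21.7 with wild-type pollen, and 59.7, 65.8 and 56.1 in unpollinated pistils. The pollinated groups overlapped and lay wholly below the unpollinated one. Its log2 difference from unpollinated pistils was -1.37 ± 0.10 with mutant pollen (SE, limma adjusted p = 3.16e-06) and -1.53 ± 0.10 with wild-type pollen (limma adjusted p = 1.28e-06). The pistil markers moved in both directions in these comparisons, as given above, and their part in the values of ADPG1 was not tested.

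AT1G56710 had the second lowest difference of the family with wild-type pollen, -1.03 ± 0.15 (SE, limma adjusted p = 0.00034), and -0.88 ± 0.15 with mutant pollen (limma adjusted p = 0.001). AT3G16850 had -0.81 ± 0.12 with mutant and -0.92 ± 0.12 with wild-type pollen. With mutant pollen the second lowest was AT1G48100, at -0.91 ± 0.25 (limma adjusted p = 0.0134), followed by AT1G60590, at -0.89 ± 0.27 (limma adjusted p = 0.0246). With wild-type pollen they were at -0.60 ± 0.25 and -0.48 ± 0.27 and did not pass (limma adjusted p = 0.0738 and 0.187). Neither passed between mutant and wild-type pollen (limma adjusted p = 0.998 for each). At the bright end of the family, AT1G10640 had intensities of 1184.4, 1144.1 and 1478.6 with mutant pollen, 1082.4, 1458.2 and 1438.2 with wild-type pollen, and 1024, 1031.1 and 1136.2 in unpollinated pistils. It passed in neither comparison with unpollinated pistils (limma adjusted p = 0.164 with mutant and 0.0868 with wild-type pollen).

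The other enzymes of pectin breakdown were read from lists of named genes, with counts alone and no test of the lists. Pollen pectin methylesterases, which prepare pectin for polygalacturonases, had 9 of 10 probe sets higher and 0 lower with either pollen. Of all probe sets 22.3% were higher with mutant and 23.4% with wild-type pollen. Median log2 differences of the methylesterases were 5 with mutant and 4.92 with wild-type pollen. Of genes with a probe set of their own, AT5G07430 had the highest difference, 7.85 ± 0.10 in both, and AT3G06830 a low one, 1.12 ± 0.14 with mutant and 0.56 ± 0.14 with wild-type pollen (SE). Pectin methylesterase inhibitors had 5 of 6 higher, beside the same shares of all probe sets, and 1 lower with either pollen. AT4G02250 was at 7.81 ± 0.10 with mutant and 7.86 ± 0.10 with wild-type pollen. The lower one, AT3G17130, was at -2.20 ± 0.34 with mutant and -2.06 ± 0.34 with wild-type pollen.

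Pectate lyases cleave the same backbone by elimination. With each pollen 6 of 23 were higher and 2 lower, 34.8% called, below the share of all probe sets. The 6 were not all the same genes. AT5G09280 was called higher with wild-type pollen alone and AT3G24670 with mutant pollen alone. AT3G01270 was at 7.22 ± 0.14 with mutant and 7.39 ± 0.14 with wild-type pollen, and AT3G07010 at -0.56 ± 0.13 with mutant and -0.71 ± 0.13 with wild-type pollen (SE). Between mutant and wild-type pollen 0 of 10 methylesterase and 0 of 6 inhibitor probe sets passed limma's test. Of all probe sets 0.312% passed there, so a count of 0 in lists this short says little by itself. Of 23 pectate lyases 1 passed, AT5G09280, at -2.90 ± 0.29 (limma adjusted p = 0.00144). Against unpollinated pistils AT5G09280 was at 0.43 ± 0.29 with mutant pollen (limma adjusted p = 0.257). With wild-type pollen it was at 3.33 ± 0.29 (limma adjusted p = 7.95e-06). GAUT15, of the family that includes enzymes of homogalacturonan synthesis, was the 1 of 15 listed genes with a probe set and passed in no comparison. The 2 polygalacturonase inhibitor genes have no listed probe set.

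The probe sets most like each polygalacturonase were taken from 13433 others with 1 listed gene, by the root mean square difference of log2 values over the 9 arrays after each was centred on its own mean. For AT5G48140 these were AT3G01240, AT5G47000 and AT5G54095, at 0.109, 0.13 and 0.139 (Pearson's r of 0.9995, 0.9992 and 0.9993). For AT3G07820 they were AT4G02250, AT5G07430 and AT5G39880, at 0.422, 0.425 and 0.469 (r of 0.999, 0.9988 and 0.9983). For AT3G07840 the nearest were AT2G14660, AT1G12775 and AT1G49800, at 0.0725, 0.0867 and 0.0871 (r of 0.9426, 0.9004 and 0.9121). The arrays share 1 step between unpollinated and pollinated groups, and 203 probe sets reached an r of 0.99 with AT3G07820, 226 with AT5G48140 and 0 with AT3G07840.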

How the data were processed

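Each deposited table column holds a linear intensity for every probe set, from 6.4 to 27175.1. RMA, the Affymetrix Expression Console and Partek are named without versions, per the submitters' processing notes, and biotin labelling used a 3' IVT kit, per the labels' protocols. RMA shares strength across probes and arrays, and low values keep background signal, so folds against dim levels depend on it. No detection calls were used. After 64 of 22810 probe sets (controls) were left out, limma 3.58.1 (R 4.3.3) was run on log2 of the deposited intensities of all 9 arrays, each group having its own mean, with Benjamini-Hochberg adjustment over 22746 probe sets. This left 6 residual beside 4.24 prior degrees of freedom. Standard errors (SE) and 95% intervals come from that fit, which was tested on simulated data. The platform annotation lists 1 gene for 13513 probe sets, several for 503 and none for 8730, and genes were named from the first alone. Cross-hybridisation between related genes was not checked, since no sequences were used.

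Groups came from the sample titles. The labels call the replicates biological, and their number limits the precision of every value. Members, gene lists and the naming rule were chosen with earlier results of these data known. Named were all measured members, called list genes with the highest and lowest differences, family probe sets called between mutant and wild-type pollen, and the 3 most like each member. Alternatives were other scalings, eBayes with trend and robust, the compared groups alone, a replicate block, a minimum mean log2 of 6, and each array left out. Replicate numbers were not taken to pair the arrays, and the block stayed an alternative.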

Additional observations from a re-analysis of the deposited data

How the results depend on the processing

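The rises of AT3G07820 and AT5G48140 kept their direction and passed in all 15 alternatives of both comparisons with unpollinated pistils. The ranges were 8.41 to 8.79 with mutant and 8.38 to 8.76 with wild-type pollen for AT3G07820, and 6.88 to 7.06 and 6.88 to 7.1 for AT5G48140. Neither gene, nor AT3G07840, passed between mutant and wild-type pollen in any alternative run. With arrays left out in turn, the difference of AT3G07840 with mutant pollen against none ran from 0.18 to 0.36, and it could not be fitted under the minimum mean log2 of 6.

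The count called between mutant and wild-type pollen, 71, was 8 at that minimum, 35 to 85 with arrays left out in turn, and 149 with marker means subtracted, where 79 were higher and 70 lower and the SE is 0.17 for each probe set named. For the other family probe sets this count, 2, was 1 with array medians subtracted, after renewed quantile normalization, in the compared groups alone, with a replicate block and with marker means subtracted, 0 at the minimum of 6, and 0 to 2 with arrays left out. With marker means subtracted, and without wild-type array 3, both probe sets called in the full fit were lost and the 1 called was AT2G40310. At that minimum, the family counts against unpollinated pistils were 13 with mutant and 11 with wild-type pollen, from fewer probe sets tested. Pectin methylesterases had 0 to 1 called between mutant and wild-type pollen with arrays left out and 1 with marker means subtracted, and pectate lyases had 0 at the minimum of 6. The cause of the other changes was not tested.

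As to pairing by replicate number, deviations of same-numbered arrays from their group means correlated from -0.16 to 0.31. Of 9 such pairs 4 were above 0.1. Not every array correlated best with its own number, and these values cannot tell whether same-numbered arrays shared a step of handling. With the replicate block 67 probe sets were called between mutant and wild-type pollen, and the call of AT4G13760 was lost (limma adjusted p = 0.0758).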

Other observations

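AT3G07820, AT3G07830, AT3G07840 and AT3G07850 are consecutive protein-coding genes in the TAIR10.1 table, the first 3 among the 5 polygalacturonases described and the last listed with AT3G14040 on 1 probe set. The flanking gene AT3G07810 had intensities of 290, 290 and 272.5 with mutant pollen, 280.1, 292 and 321.8 with wild-type pollen, and 242.2, 238.9 and 266.9 in unpollinated pistils. AT3G07860, on the other side, had 187.4, 202.3 and 195.4 with mutant pollen, 200.9, 195.4 and 187.4 with wild-type pollen, and 194, 215.3 and 235.6 in unpollinated pistils. The log2 difference of AT3G07810 from unpollinated pistils was 0.19 ± 0.08 with mutant and 0.26 ± 0.08 with wild-type pollen (SE), and that of AT3G07860 was -0.14 ± 0.08 with either pollen. Of these, that of AT3G07810 with wild-type pollen passed (limma adjusted p = 0.0257). AT3G07820 and AT3G07840, separated by 1 gene in this run, thus had log2 differences of 8.63 ± 0.19 and 0.20 ± 0.13 with wild-type pollen.

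Unpollinated array 2 had the lowest value of the 3 unpollinated arrays for each of AT3G07820, AT5G48140 and AT3G07840. Among 85 probe sets called higher by a log2 of at least 5 with wild-type pollen, 83 had a single lowest unpollinated array, and it was array 2 in 42 of them (50.6%). Over all probe sets tested that share was 32.8%, and the sets were formed with the same arrays. Without array 2 the log2 difference of AT3G07820 was 8.41 ± 0.13 with mutant and 8.38 ± 0.13 with wild-type pollen.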
